A study of Homo sapiens with 10 samples.

Results

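NRXN3, TAGAP, INSC, MMP16 and TCERG1L-AS1 are described here by all regions of H3K27ac (histone H3 acetylated at lysine 27) that the deposited annotation assigned to them. The 5 genes were chosen by their read counts, because each was listed with a region that was nearly without reads in a group of libraries and well covered in another. They held 32 of the 67387 annotated regions: 4 at NRXN3, 3 at TAGAP, 4 at INSC, 16 at MMP16 and 5 at TCERG1L-AS1. All 32 passed the filter on low counts. Contrasts with DMSO are therefore given as descriptions with no test. The contrast between both treated groups was tested, but its libraries also entered the choice.

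H3K27ac ChIP-seq was done in H1975, an established human lung adenocarcinoma line that carries mutant EGFR, with 3 biological replicates per group and 1 pooled input library of chromatin that was not immunoprecipitated. DMSO cells were grown for 21 days without drug and then for 3 days with DMSO. Osimertinib DTP (drug-tolerant persister) cells were kept for 24 days in 500 nM osimertinib, an EGFR inhibitor. Osimertinib DTP + AZD5153 cells had 21 days of 500 nM osimertinib followed by 3 days of 150 nM AZD5153, a BET bromodomain inhibitor, and the labels do not say whether osimertinib was kept on. In bulk chromatin, fewer cells with the mark and less mark per cell cannot be told apart.

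H3K27ac lies on nucleosomes at active promoters and enhancers, where acetyltransferases such as p300 place it and where BET proteins bind acetylated chromatin. Enhancers can lie in introns or far from the gene they act on, so the gene that an annotation gives to a region is the nearest by position and need not be its target. NRXN3 encodes a neurexin, a presynaptic adhesion molecule. TAGAP encodes a protein known from activated T cells. INSC encodes the adaptor Inscuteable, which links polarity proteins to the machinery that orients the mitotic spindle. MMP16 encodes a membrane-type matrix metalloproteinase. TCERG1L-AS1 is a long noncoding RNA of the antisense class.

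Total counts were 6263443 to 10463351 per H3K27ac library. Replicate 3 of osimertinib DTP + AZD5153 stood apart, with the lowest total and with rank correlations of 0.445 and 0.367 with its replicates, against 0.888 between those. The other groups had correlations of 0.805 to 0.893. Among promoter regions of marker genes, 6 of 6 epithelial and 3 of 4 lung genes had a region (none at SFTPC), 1 of 7 lymphocyte genes had one (CD79A, at most 5.23 CPM, counts scaled to a common library total), and none of 5 neuronal genes had one. Myeloid promoters (CD14 and CSF1R, 2 of 3 genes) summed to 37.9 to 96.9 CPM over all libraries and the endothelial one (CDH5, 1 of 2 genes) to 10.6 to 49.4 CPM. Epithelial promoters summed to 660 to 906 CPM in DMSO, 676 to 1294 CPM for osimertinib DTP and 677 to 1196 CPM for osimertinib DTP + AZD5153. Fibroblast promoters (3 of 4 genes) summed to 18.3 to 40.6 CPM in DMSO, 71.8 to 159 CPM for osimertinib DTP and 106 to 288 CPM for osimertinib DTP + AZD5153, and the part of this in the results below was not tested. CPM values here use TMM-scaled totals.

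The 32 regions fell into 11 clusters when regions within 10 kb were joined. At NRXN3 and TAGAP the mark was higher in the persisters, at INSC and TCERG1L-AS1 it was lower, and MMP16 held clusters of both kinds. In osimertinib DTP against DMSO, 8 member regions were called higher at an adjusted p under 0.05 (edgeR), where 5.58% of all regions tested were, and 15 were called lower, where 5.13% were. In osimertinib DTP + AZD5153 against DMSO the counts were 6 higher, beside 9.05% of all regions, and 17 lower, beside 9.01%. The 8 became 3 without replicate 2 or 3 of DMSO and 5 without replicate 3 of osimertinib DTP. Over all regions the 8814 called higher became 668, 1324 and 3010 in those fits. Because the rule used these contrasts, nothing is read from these counts. The near absence of reads was narrower than the change. With 3 or fewer counts in a group's libraries together as the limit, 4 of the 32 regions were near-empty: 1 each at TAGAP and NRXN3 in DMSO, and 1 each at MMP16 and INSC in osimertinib DTP + AZD5153. Over all counted regions this held for 0.387% in DMSO, 0.123% for osimertinib DTP and 0.511% for osimertinib DTP + AZD5153. The sums just inside the limit were 2 counts at NRXN3 and 3 at INSC. Just outside it were 4 counts in osimertinib DTP, at the same MMP16 region. Next came 5 counts, at a region each of MMP16, TAGAP and TCERG1L-AS1. TCERG1L-AS1 had no near-empty region. The pooled input had reads in each of the 32 regions, from 1 to 22 counts.

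**Figure D1:**
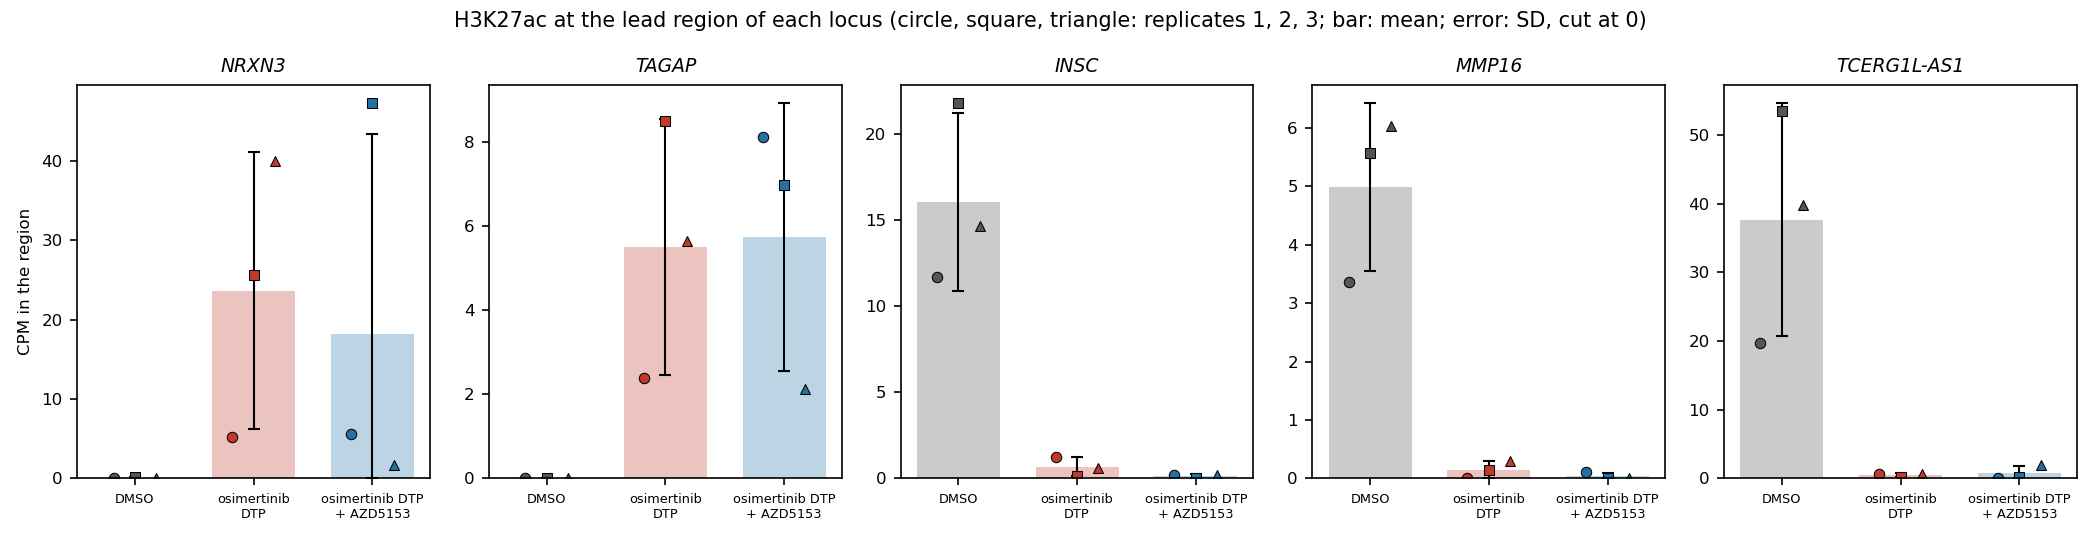
H3K27ac in CPM (vertical axis, from 0, a scale per panel) at the region with the largest fold change of each locus, for 3 libraries per group (points), with the mean (bar) and SD (error bar, cut at 0). DMSO libraries sit at or near 0 at NRXN3 and TAGAP, and the 6 treated libraries sit near 0 at INSC, MMP16 and TCERG1L-AS1.

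At NRXN3, the large change was at the 2 regions in intron 6 of 19, and the 2 regions in intron 14 differed less. The region with the largest change lay at chr14:78682752-78683253. It had 0, 2 and 0 counts in DMSO, 55, 184 and 397 for osimertinib DTP, and 56, 406 and 9 for osimertinib DTP + AZD5153. All treated libraries lay above the DMSO libraries, but they spread widely, and replicate 3 of osimertinib DTP + AZD5153 was the lowest of the 6. The ratio of scaled counts was 353.5 (counting interval 97.5 to 2925) for osimertinib DTP and 304 (83.7 to 2517) for osimertinib DTP + AZD5153. Intervals here have a level of 95% and cover counting error only. Without replicate 2 of DMSO, the only DMSO library with reads there, the treated levels were at least 161.2-fold and at least 138.6-fold higher, against a floor of 3 counts over the group. Without replicate 1 of DMSO the ratios were 226.3 and 194.6. The ratio of osimertinib DTP was 207.6 when its replicate 3 was left out, and that of osimertinib DTP + AZD5153 was 461.9 or 65.7 when its replicate 1 or 2 was.

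The adjoining NRXN3 region, chr14:78683381-78683882, had 8, 6 and 7 counts in DMSO, 53, 121 and 272 for osimertinib DTP, and 60, 324 and 7 for osimertinib DTP + AZD5153. It was thus low but not empty in DMSO, and the last of these libraries was the lowest treated one, at 1.35 CPM against 0.620 to 0.726 CPM in DMSO. Together both regions had 0.752 ± 0.065 CPM (SD, n = 3) in DMSO, 40.0 ± 28.6 CPM for osimertinib DTP and 33.2 ± 45.0 CPM for osimertinib DTP + AZD5153, with peaks of up to 36.8-fold enrichment in osimertinib DTP and none in the DMSO lists. The other cluster lay in intron 14 of 19. Its region chr14:79369312-79369813 had 42, 40 and 23 counts in DMSO, 71, 46 and 78 for osimertinib DTP, and 25, 39 and 0 for osimertinib DTP + AZD5153. This cluster had 7.92 ± 2.15 CPM in DMSO, 13.6 ± 0.89 CPM for osimertinib DTP and 5.51 ± 4.48 CPM for osimertinib DTP + AZD5153, a 1.72-fold difference for the first pair.

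At TAGAP all 3 regions changed together, within 2808 bp. The middle region, chr6:159083958-159084459, had 0 counts in each DMSO library, 25, 61 and 56 for osimertinib DTP, and 81, 60 and 11 for osimertinib DTP + AZD5153. The treated libraries were at least 52.6-fold and at least 65.4-fold higher (33.7-fold and 41.9-fold without replicate 1 of DMSO), and the input had 1 count. The region 0.5 kb before it (starting at 159083415) had 4, 2 and 2 counts in DMSO, 46, 19 and 82 for osimertinib DTP, and 109, 103 and 4 for osimertinib DTP + AZD5153. The region 1.8 kb after it (starting at 159085721) had 2, 2 and 1 counts in DMSO, 68, 50 and 84 for osimertinib DTP, and 235, 152 and 13 for osimertinib DTP + AZD5153. DMSO libraries thus had next to no reads across the whole locus, and replicate 3 of osimertinib DTP + AZD5153 was again the lowest treated library. The locus had 0.420 ± 0.121 CPM in DMSO, 17.9 ± 4.54 CPM for osimertinib DTP and 28.2 ± 19.97 CPM for osimertinib DTP + AZD5153. A peak overlapped 0 of 9 pairs of region and library in DMSO, 9 of 9 for osimertinib DTP and 6 of 9 for osimertinib DTP + AZD5153. The deposited annotation placed these regions in the last intron of a TAGAP transcript, but the TAGAP gene of RefSeq (GRCh38.p14) does not hold them and an uncharacterized gene, LOC112267968, does.

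At INSC the whole locus was lower in both treated groups. The region in intron 6 of 12, chr11:15195393-15195894, had 129, 211 and 146 counts in DMSO, 13, 1 and 6 for osimertinib DTP, and 2, 0 and 1 for osimertinib DTP + AZD5153. DMSO was 21.9-fold (13.998 to 36.1) above osimertinib DTP and 125.5-fold (42.7 to 610.8) above osimertinib DTP + AZD5153. The former was 38.8-fold when replicate 1 of osimertinib DTP was left out, and the latter was 218.3-fold or 80.1-fold when replicate 1 or 2 of its treated group was. The other 3 INSC regions were lower as well but kept reads. The region 3.9 kb further on (starting at 15199248) had 57, 72 and 47 counts in DMSO, 19, 4 and 9 for osimertinib DTP, and 15, 12 and 0 for osimertinib DTP + AZD5153. The region over exon 7 of 13 (starting at 15200442) had 64, 45 and 52 counts in DMSO, 13, 6 and 7 for osimertinib DTP, and 5, 2 and 8 for osimertinib DTP + AZD5153. Intergenic sequence 5630 bp before the annotated start held the last region (starting at 15106293), with 130, 156 and 121 counts in DMSO, 19, 22 and 15 for osimertinib DTP, and 14, 17 and 4 for osimertinib DTP + AZD5153. No treated library reached the lowest DMSO library at any of the 4 regions. Upstream, DMSO was 6.27-fold above osimertinib DTP, and over the 3 intragenic regions 10.1-fold. Peaks overlapped 12 of 12 pairs of region and library in DMSO and 0 of 12 in each treated group.

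MMP16 held the most regions, and its clusters differed from each other. The first cluster, 8 regions over 7469 bp in intron 1 of 9, lost nearly all its signal. It had 88.5 ± 33.6 CPM in DMSO, 2.94 ± 1.70 CPM for osimertinib DTP and 3.31 ± 0.74 CPM for osimertinib DTP + AZD5153, that is 30.1-fold and 26.7-fold lower. Peaks that touched this cluster had summed widths, parts outside it included, of 5552 bp, 7758 bp and 7860 bp in the DMSO libraries. The 6 treated libraries had no peak here. The region chr8:88238893-88239394, which had the largest fold change of osimertinib DTP + AZD5153 against DMSO, had 37, 54 and 60 counts in DMSO, 0, 1 and 3 for osimertinib DTP, and 1, 0 and 0 for osimertinib DTP + AZD5153. It was the least covered of the 8 in DMSO, and the ratios were 34.0 (12.99 to 126) against osimertinib DTP and 117.0 (20.7 to 4651) against osimertinib DTP + AZD5153. When replicate 1 or 3 of osimertinib DTP was left out the former was 21.1 or 86.9. The latter was 74.7 without replicate 2 of its group, and without replicate 1, the only one with a read, DMSO was at least 22.6-fold higher. Against osimertinib DTP the region starting at 88239565 had a higher ratio, of 58.5. The other 7 regions of the cluster had 53 to 232 counts per DMSO library and 0 to 12 per treated library, so the change ran across the cluster and was not that of a region alone.

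Further along the same intron, MMP16 kept part of its signal. The second cluster, 2 regions 30.6 and 31.5 kb from the lead region, had 34.7 ± 13.97 CPM in DMSO, 6.99 ± 2.66 CPM for osimertinib DTP and 9.44 ± 8.98 CPM for osimertinib DTP + AZD5153. Its better covered region (starting at 88269448) had 143, 246 and 153 counts in DMSO, 50, 15 and 41 for osimertinib DTP, and 97, 52 and 1 for osimertinib DTP + AZD5153. The third cluster, a region 59.2 kb from the lead region, had 117, 198 and 136 counts in DMSO, 50, 31 and 27 for osimertinib DTP, and 74, 91 and 1 for osimertinib DTP + AZD5153. At all 3 regions the last treated library had at most 1 count, while replicates 1 and 2 of that group kept 34 to 97.

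The fourth MMP16 cluster went the other way. Its 5 regions lay 89947 to 97048 bp before the annotated start, within the RefSeq gene LOC105375630, and had 10.2 ± 2.30 CPM in DMSO, 35.3 ± 7.49 CPM for osimertinib DTP and 20.6 ± 10.5 CPM for osimertinib DTP + AZD5153. The region starting at 88420175 had 15, 26 and 19 counts in DMSO, 77, 101 and 148 for osimertinib DTP, and 80, 103 and 17 for osimertinib DTP + AZD5153. The region starting at 88419534 had 5, 8 and 6 counts in DMSO, 48, 23 and 80 for osimertinib DTP, and 9, 12 and 8 for osimertinib DTP + AZD5153. The latter had 0.453 to 0.826 CPM in DMSO, 3.20 to 8.06 CPM for osimertinib DTP and 0.902 to 1.55 CPM for osimertinib DTP + AZD5153, so the third group lay between the others and nearer to DMSO. The outermost region (starting at 88425073) had 39, 51 and 45 counts in DMSO and 46, 44 and 58 for osimertinib DTP, and these groups overlapped. A peak overlapped 36 of 48 pairs of MMP16 region and library in DMSO, 17 of 48 for osimertinib DTP and 13 of 48 for osimertinib DTP + AZD5153.

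**Figure D2:**
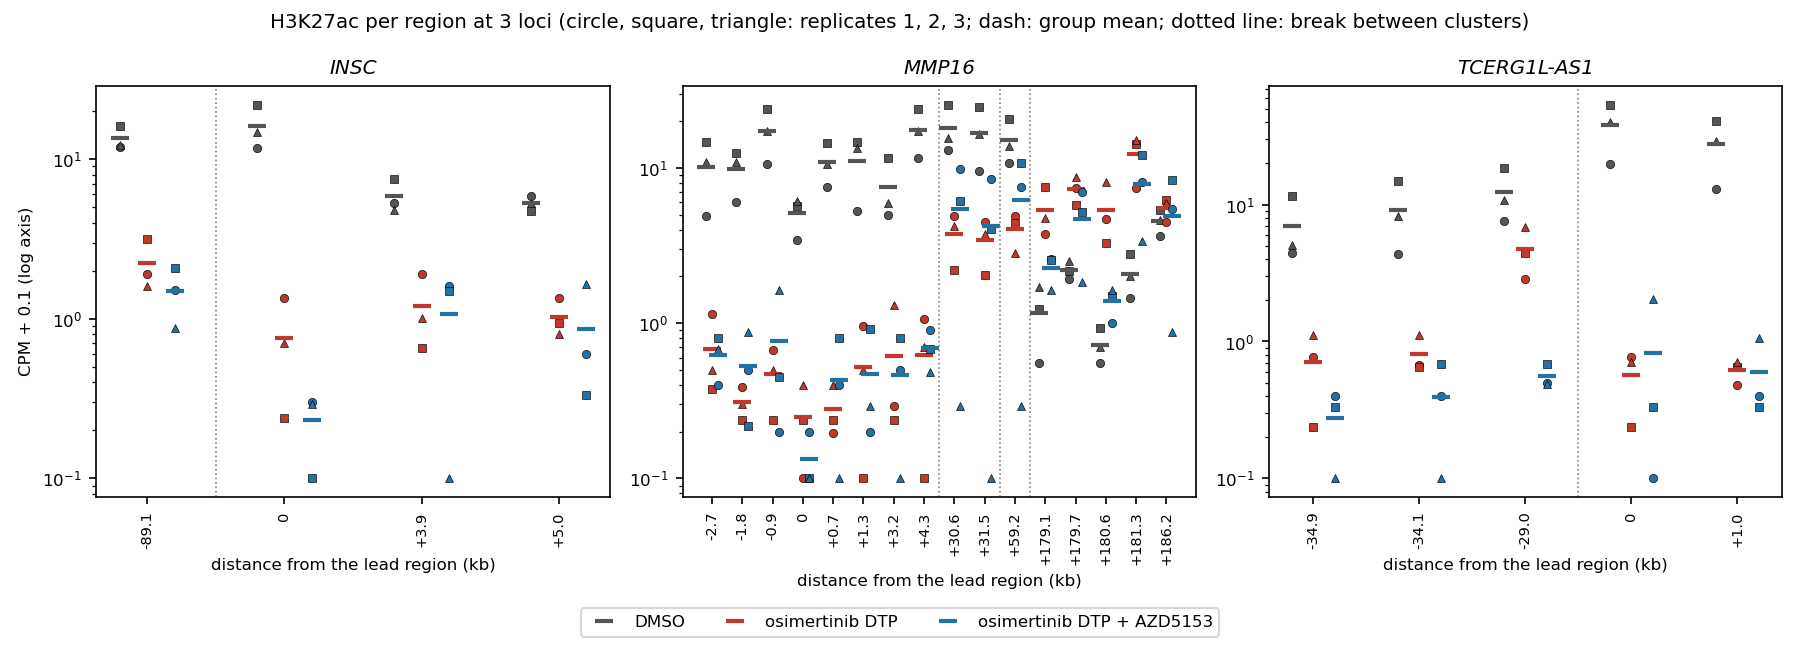
H3K27ac in CPM plus 0.1 (log axis) for each region of INSC, MMP16 and TCERG1L-AS1, ordered by distance from the lead region in kb (evenly spaced, not to scale), for 3 libraries (points) and the mean (dash) of each group, with dotted lines between clusters. At MMP16 the regions up to 4.3 kb from the lead region are near the floor in all treated libraries, while those 179.1 to 181.3 kb away are higher in osimertinib DTP than in DMSO.

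TCERG1L-AS1 had its regions in intergenic sequence before the annotated start, in 2 clusters. The near cluster, 8334 to 9291 bp before the start, held the best covered region of all 32. That region, chr10:131085426-131085927, had 218, 518 and 396 counts in DMSO, 7, 1 and 6 for osimertinib DTP, and 0, 2 and 10 for osimertinib DTP + AZD5153. DMSO was 72.7-fold (43.2 to 133) above osimertinib DTP and 73.1-fold (41.7 to 142) above osimertinib DTP + AZD5153, and the latter was 42.4-fold or 343.0-fold without replicate 1 or 3 of that group. The region 1.0 kb from it (starting at 131086383) had 143, 391 and 287 counts in DMSO, 4, 4 and 6 for osimertinib DTP, and 3, 2 and 5 for osimertinib DTP + AZD5153. Both regions were therefore low in every treated library, and the peak of up to 31.7-fold enrichment that covered them in DMSO was in none of the 6 treated lists.

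The far TCERG1L-AS1 cluster, 38256 to 44144 bp before the start, did not change as a unit. The region starting at 131050573 had 48, 110 and 49 counts in DMSO, 7, 1 and 10 for osimertinib DTP, and 3, 2 and 0 for osimertinib DTP + AZD5153. The region starting at 131051311 had 47, 142 and 81 counts in DMSO, 6, 4 and 10 for osimertinib DTP, and 3, 5 and 0 for osimertinib DTP + AZD5153. Both were low in all treated libraries. The region starting at 131056461 had 82, 177 and 107 counts in DMSO, 29, 31 and 67 for osimertinib DTP, and 4, 5 and 2 for osimertinib DTP + AZD5153, so that the 3 groups did not overlap. At this region DMSO was 2.59-fold (2.11 to 3.20) above osimertinib DTP and 25.8-fold (14.2 to 52.1) above osimertinib DTP + AZD5153. A peak overlapped 15 of 15 pairs of TCERG1L-AS1 region and library in DMSO, 3 of 15 for osimertinib DTP, all at this region, and 0 of 15 for osimertinib DTP + AZD5153.

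**Figure D3:**
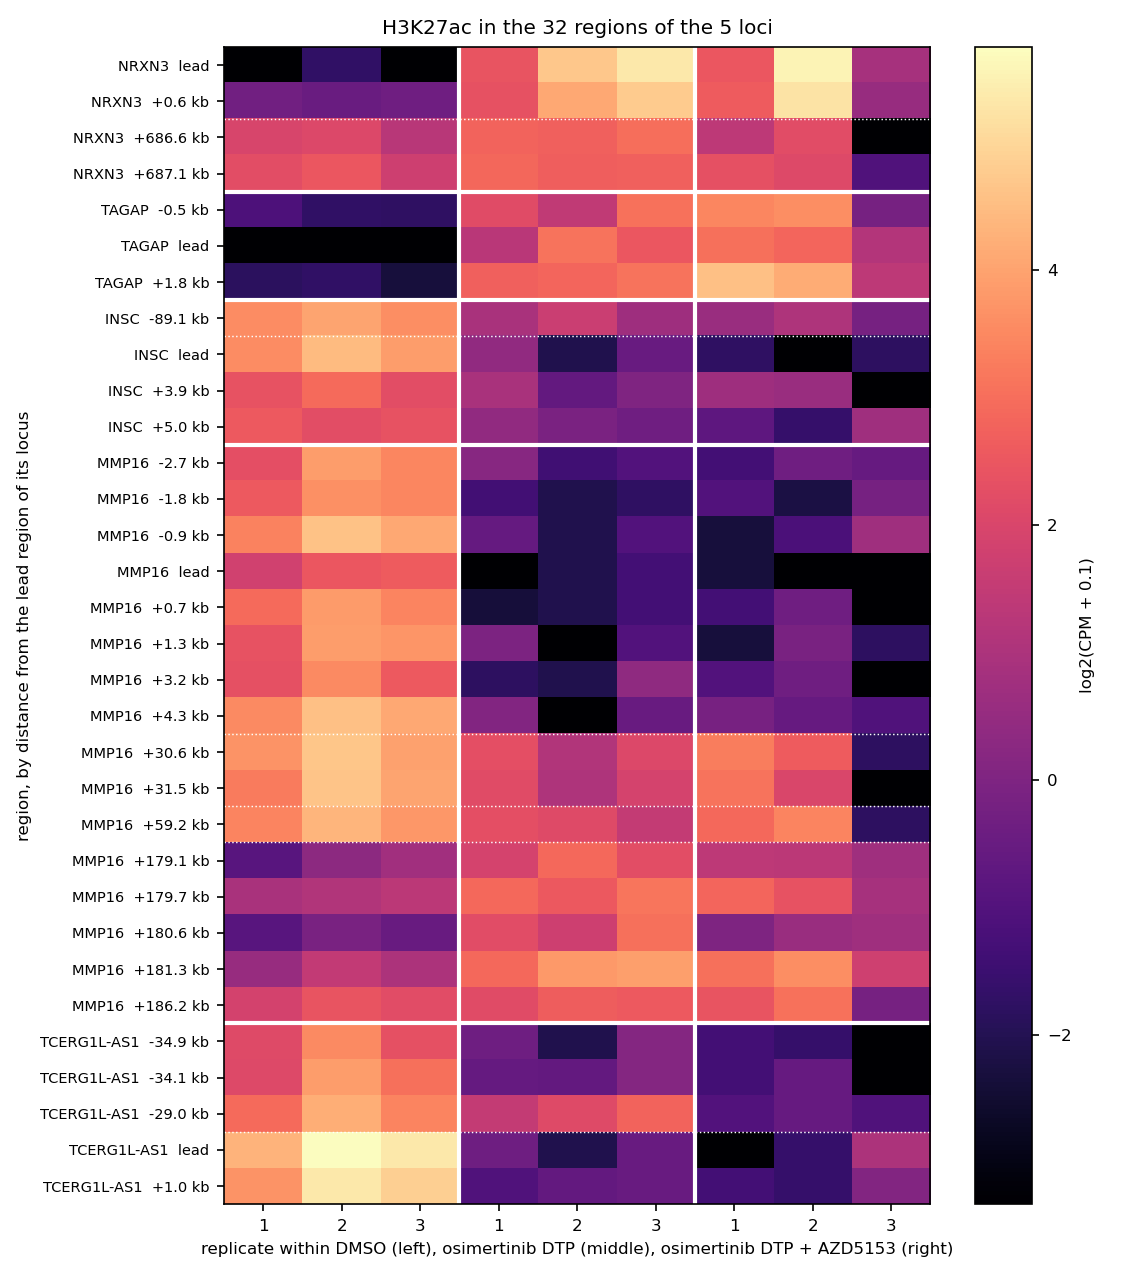
H3K27ac as log2(CPM + 0.1) (colour) in the 32 regions (rows, by distance from the lead region of the locus; dotted lines separate clusters) and 9 libraries (columns). NRXN3 intron 6 and TAGAP are dark in DMSO, INSC, the MMP16 lead cluster and the TCERG1L-AS1 near cluster are dark in the treated groups, and the last column is darker than its neighbours at NRXN3 and at the middle MMP16 clusters.

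The contrast of osimertinib DTP + AZD5153 with osimertinib DTP asked whether the later drug moved these loci away from their persister level. At INSC and MMP16 the near-empty region lay in osimertinib DTP + AZD5153, so the choice of these genes favours lower values in that group. TCERG1L-AS1 had no near-empty region, but its lowest sum, 5 counts, also lay in that group, so its choice may favour them too. The differences of INSC, MMP16 and TCERG1L-AS1, that of the INSC lead region among them, are therefore not read as tests. By edgeR's quasi-likelihood test with Benjamini-Hochberg adjustment, 0 of the 32 regions passed, as did 0% of all 157919 regions tested; 3 member regions had an unadjusted p under 0.05, as did 7013 of all regions. The median log2 fold change was −0.21 over the members and 0.06 over all regions tested. No member region had every osimertinib DTP + AZD5153 library above osimertinib DTP, where 2.83% of all regions did, and 5 had every library below (2 at NRXN3, 2 at MMP16 and 1 at TCERG1L-AS1), where 5.4% did. At TAGAP the 3 log2 fold changes were 0.08 ± 0.65 (SE) to 1.00 ± 0.64. At NRXN3 they were −1.53 ± 0.76 to −0.12 ± 0.83.

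The region of TCERG1L-AS1 starting at 131056461 had the smallest p among the members, a log2 fold change of −3.28 ± 0.67 (SE) with an adjusted p of 0.506 (edgeR). It passed the threshold by DESeq2 (−3.17, adjusted p = 0.0308), which called 16 regions higher and 64 lower of all those it tested. It also passed by edgeR without replicate 3 of osimertinib DTP + AZD5153 (−3.21, adjusted p = 0.0492), a fit that called 103 higher and 95 lower of all regions. With the other alternatives its edgeR adjusted p ranged from 0.289 to 1.00. The MMP16 region starting at 88419534 had a log2 fold change of −2.05 ± 0.62 with an adjusted p of 1.00 (edgeR), and 0.0868 without that library. Both regions were singled out after their values had been seen. They also lie at genes whose choice may favour lower values in osimertinib DTP + AZD5153, so nothing is read from these p-values. The third region with an unadjusted p under 0.05 was the INSC lead region, at −2.32 ± 0.95 with an adjusted p of 1.00 (edgeR), where both groups had few reads.

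Summed over all regions of a gene, the treated groups overlapped at NRXN3, TAGAP and MMP16. At INSC and TCERG1L-AS1 every osimertinib DTP + AZD5153 library lay below osimertinib DTP, the direction that the choice of these genes may favour. The share of all genes that do so was not computed (5.4% of single regions did), and nothing is read from it. In log2(CPM + 1) the difference was −1.26 at NRXN3, 0.24 at TAGAP, −0.45 at INSC, −0.55 at MMP16 and −1.33 at TCERG1L-AS1. The two-sided exact permutation p was 0.5, 0.9, 0.1, 0.8 and 0.1 in that order, and 0.833, 0.9, 0.25, 0.9 and 0.25 after Benjamini-Hochberg adjustment over 5 genes. With 3 libraries against 3 the smallest p that can be reached is 0.1, so that no difference here could pass the threshold. The p-values of INSC, MMP16 and TCERG1L-AS1 are not read as tests, because the choice of these genes may favour lower values in osimertinib DTP + AZD5153. The difference at TAGAP turned to −0.25 without replicate 1 of osimertinib DTP + AZD5153 and to −0.15 without replicate 2, and that at MMP16 to 0.11 without replicate 3.

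**Figure D4:**
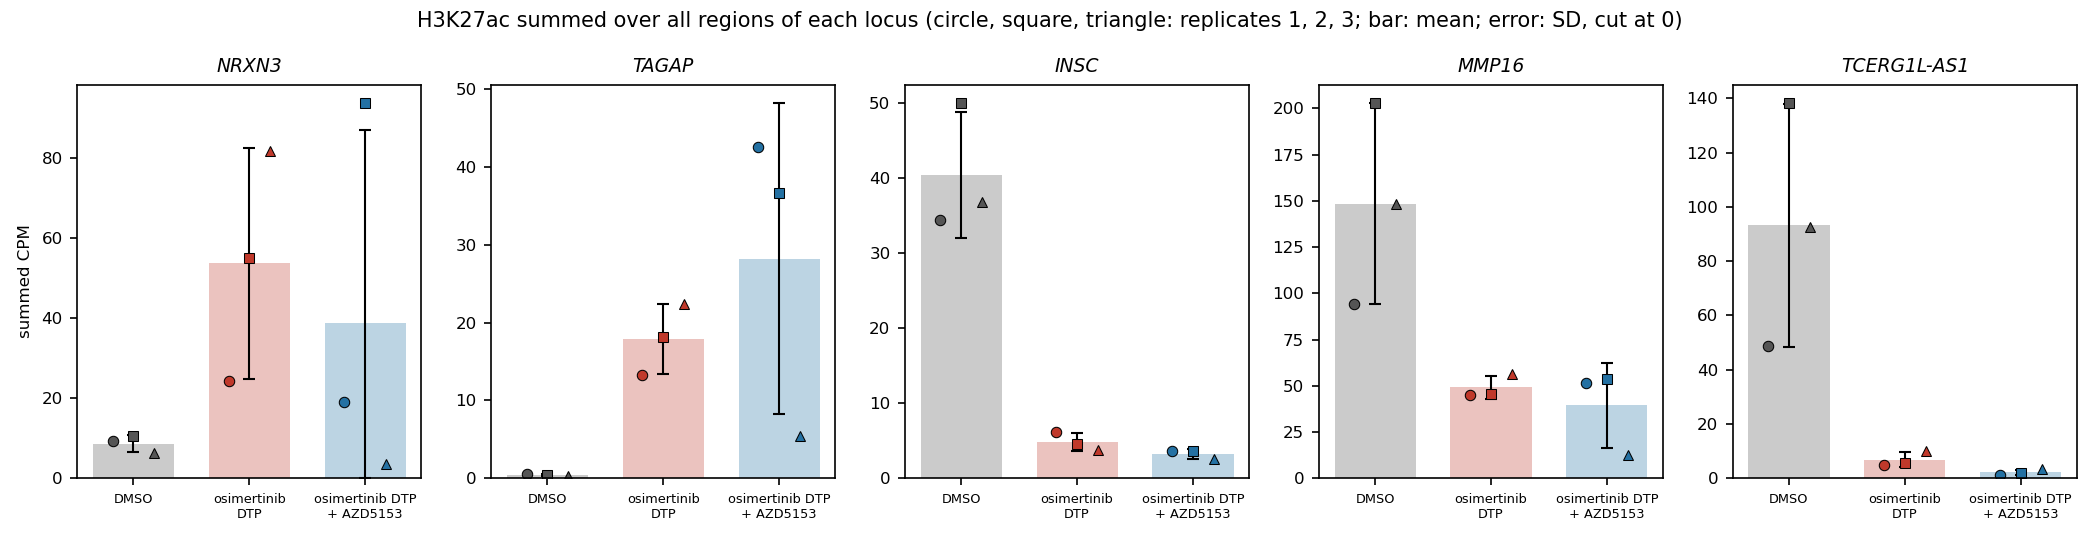
H3K27ac summed in CPM over all regions of each gene (vertical axis, from 0, a scale per panel) for 3 libraries per group (points), with the mean (bar) and SD (error bar, cut at 0). Osimertinib DTP + AZD5153 replicate 3 (triangle) is the lowest treated library at NRXN3, TAGAP and MMP16, while at TCERG1L-AS1 all libraries of that group lie below osimertinib DTP.

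Regions that were counted but not annotated were looked at after the data had been seen, within 20 kb of the outermost member regions of each locus. There were 25, of which 19 passed the filter on low counts. In osimertinib DTP against DMSO, 4 of 4 tested at NRXN3 were higher (2 called), 4 of 4 at INSC were lower (1 called) and 8 of 8 at TCERG1L-AS1 were lower (2 called), the side of the lead region of the locus. Of 2 tested at MMP16 both were lower (1 called), including the region starting at 88424439, which lay inside the fourth cluster and differed by −0.88, against the direction of most of that cluster. The 1 tested at TAGAP was higher and not called. In all, 10.5% were called higher and 21.1% lower, beside 5.58% and 5.13% of all regions, and nothing is read from this because they lie in the loci chosen by this contrast. At NRXN3 the 4 included a pair of neighbouring regions, 333797 bp and 334300 bp past the lead region, between both member clusters. Of these, the region starting at 79016549 had 2, 4 and 1 counts in DMSO, 23, 23 and 34 for osimertinib DTP, and 18, 18 and 1 for osimertinib DTP + AZD5153. At TCERG1L-AS1, a region next to the graded one (starting at 131055735) had 29, 88 and 51 counts in DMSO, 16, 18 and 25 for osimertinib DTP, and 1, 7 and 4 for osimertinib DTP + AZD5153, which repeats that order of the groups. Between the treated groups 0 of the 19 were called by edgeR, and 3 had an unadjusted p under 0.05.

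No member region lay at a promoter. RefSeq (GRCh38.p14) gave 8 promoter windows, from 250 bases before to 50 after a start, for 4 of the 5 genes and none for MMP16. The member regions lay at least 5380 bp from those of INSC, 8084 bp from that of TCERG1L-AS1, 40812 bp from that of TAGAP and 89883 bp from those of NRXN3. The deposited annotation used other starts as well, at least 14338 bp away for NRXN3 and 9601 bp for TAGAP. A counted region overlapped 1 of the 8 windows, that of TCERG1L-AS1, with 16, 55 and 36 counts in DMSO, 7, 47 and 11 for osimertinib DTP, and 0, 3 and 3 for osimertinib DTP + AZD5153. This window, at chr10:131094968-131095267 on the plus strand, is shown because no other of the 8 overlapped a counted region. The promoter of MMP16 was not examined.
TCERG1L-AS1 promoter: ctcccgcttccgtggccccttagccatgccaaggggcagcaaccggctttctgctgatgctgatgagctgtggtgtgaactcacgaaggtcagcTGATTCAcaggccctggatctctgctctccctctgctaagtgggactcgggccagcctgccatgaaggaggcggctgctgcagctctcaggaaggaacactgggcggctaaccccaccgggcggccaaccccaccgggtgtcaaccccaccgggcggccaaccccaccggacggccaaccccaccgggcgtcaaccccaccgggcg
The window has 66.7% G and C and 18 CpG. Capitals mark its match to TGANTCA at position 95 from the 5′ end. Of 35116 RefSeq promoter windows of the same length, 7.71% hold such a match. That pattern allows any middle letter, whereas the consensus of AP-1 factors has C or G there. The match here has T, so it is not their consensus. GGAATG, the letters of TEAD factors (14.03% of windows), CCAAT (34.6%) and TATAAA (11.5%) had no match on either strand.

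Beyond the 5 genes, neighbours within 500 kb of a lead region had annotated regions only around TAGAP and INSC. None had an annotated region near NRXN3, MMP16 or TCERG1L-AS1. Around TAGAP, 9 genes had 40 regions, of which 1 was called higher and 1 lower in osimertinib DTP against DMSO, with a median log2 fold change of 0.05. These are 2.5% each, below the 5.58% and 5.13% of all regions, so the pair named next is no result about the surroundings of TAGAP. A region of LINC02529, 376847 bp from the TAGAP lead region, rose (3.03 ± 0.63, edgeR adjusted p = 0.00786), from 3, 4 and 4 counts in DMSO to 30, 22 and 32. A region of C6orf99, on the other side of TAGAP, fell (−2.40 ± 0.62, edgeR adjusted p = 0.0212). The rise at LINC02529 was no longer called in 2 of 9 fits that each left out a library, and the fall at C6orf99 in 5 of 9 (without replicate 2 of DMSO, adjusted p = 0.0609 and 0.169). Near INSC, whose own regions were lower, the neighbour CALCA, the gene of calcitonin and CGRP, rose (3.51 ± 0.85, edgeR adjusted p = 0.0159), from 9, 1 and 2 counts in DMSO to 52, 41 and 28. It was not called in 3 of the 9 such fits. The promoter region of CYP2R1, a vitamin D 25-hydroxylase, differed by 0.90 ± 0.73 (edgeR adjusted p = 0.489).

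Genes that work with the members gave mixed counts. These lists were chosen with earlier results of these data known, so their counts are descriptions and not tests of the lists. Of 62 regions at 7 of the 8 listed membrane-type matrix metalloproteinases, MMP2 and TIMPs, 11 rose and 2 fell in osimertinib DTP against DMSO, which is 17.7% and 3.23%, beside 5.58% and 5.13% of all regions. The median log2 fold change was 0.68, against 0.15 over all regions tested. A TIMP3 region rose by 5.12 ± 0.71 (edgeR adjusted p = 0.00273), from 6, 4 and 8 counts in DMSO to 144, 170 and 249. TIMP3 inhibits metalloproteinases, and MMP2 is a gelatinase that membrane-type metalloproteinases activate. A region assigned to MMP2 rose by 4.98 ± 0.86 (edgeR adjusted p = 0.00383), from 4, 2 and 2 to 92, 54 and 94. Both remained past the threshold without any one library. In osimertinib DTP + AZD5153 against DMSO the list had 11 higher and 2 lower, 17.7% and 3.23%, beside a larger 9.05% and 9.01% of all regions. Leaving out a library moved the 11 higher to between 3 (without replicate 2 of DMSO) and 17 (without replicate 3 of osimertinib DTP + AZD5153), and the 2 lower to between 0 (without replicate 2 of DMSO or of osimertinib DTP) and 3. Among all regions, 668 of 164143 were called higher without replicate 2 of DMSO and 22942 of 161758 without replicate 3 of osimertinib DTP + AZD5153.

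Neurexin relatives and partners had regions at 4 of 8 genes, 9 in all, with 1 higher and 1 lower in osimertinib DTP against DMSO, 11.1% each. The intronic CASK region rose by 3.65 ± 0.83 (edgeR adjusted p = 0.0121), which was lost in 3 of 9 fits without a library. CASK is a scaffold that binds the neurexin tail. The NRXN2 region near its promoter fell by 3.35 on the log2 scale (SE 0.60, edgeR adjusted p = 0.00426), from 144, 283 and 196 counts in DMSO to 27, 10 and 20, and was called in all 9 of those fits. Inscuteable partners had 51 regions at 7 of 8 genes, of which 0 were called by edgeR in osimertinib DTP against DMSO, where 4 had an unadjusted p under 0.05. The calls there were 2 lower by DESeq2, 5 lower with only both groups in the fit, and 6 lower without replicate 3 of osimertinib DTP + AZD5153. Over all regions those settings called 14971 of 169611, 18728 of 146480 and 20489 of 161758 lower. Nothing is read from these counts about the list. In osimertinib DTP + AZD5153 against DMSO 3 were called higher and 5 lower, 5.88% and 9.8%, beside 9.05% and 9.01% of all regions, which are near or below the background, so nothing is read from them about the list. Each count ran from 0 to 7 when a library was left out, with 0 higher in 6 of the 9 fits, and 0 lower without replicate 2 of DMSO or replicate 1 of the treated group. Over all regions those fits called 3943 to 29786 higher and 4526 to 27986 lower. Among the 5 were regions of PARD3 (−2.61 ± 0.68, edgeR adjusted p = 0.0141) and PRKCI (−2.17 ± 0.59, edgeR adjusted p = 0.0181), each lost in 3 of 9 fits without a library. Between the treated groups edgeR called 0 regions of these 3 lists, and 5 of the metalloproteinase list, 0 of the neurexin list and 6 of the Inscuteable list had an unadjusted p under 0.05.

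Single regions elsewhere had closely similar patterns to the lead regions. Over the 9 libraries, which share depth and treatment, the highest Pearson correlations of log2(CPM + 0.5) were 0.999 for FBXL20 and LRRN1 with NRXN3, 0.990 for MYL12A, CNNM1 and SOWAHD with TAGAP, and 0.998 for the FGFR1 promoter with INSC. They were 0.995 for CDH17, CDK6 and MIR5006 with MMP16 and 0.996 for MIR4642 and ETS2 with TCERG1L-AS1. These are the top values among all annotated regions more than 1 Mb away.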

How the data were processed

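Raw read counts per 502 bp region in 9 H3K27ac libraries and the input were deposited by the authors, together with an annotated table of 67387 of these regions and 1 peak list per H3K27ac library which gives a peak's score, its fold enrichment as a ratio, and −log10 p-values and q-values. Per the labels, the submitters' processing notes name BWA 0.7.17, MACS2 2.2.6, featureCounts 2.0.0, ChIPseeker 1.29.1 and hg38, without roles. The members, lists and neighbour rules were chosen with earlier results of these data known. The lead region of a gene is that with the largest fold change in a contrast with DMSO. Named list genes are up to 3 per list, and named neighbours up to 3 per locus, by largest fold change, and likeness names 3 genes per lead region. Results for 2 of the lists are not reported here.

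Counts of 169637 regions were filtered with filterByExpr (minimum count 10), scaled with TMM and tested in 1 fit of 9 libraries with edgeR 4.0.16 (limma 3.58.1, R 4.3.3) by the quasi-likelihood test, with Benjamini-Hochberg adjustment over 157919 regions. The test was checked on simulated counts. Locus totals used exact permutation (scipy 1.17.1). Ratios used counts summed over a group and scaled totals, with binomial intervals. A peak counted by any overlap. Each peak list matched its own count column best (9 of 9). P-values measure the spread between libraries. No 2 libraries agreed within sampling noise. Alternatives were DESeq2 1.42.0, no TMM, a loess offset (span 0.3), no filter, annotated regions alone, the compared groups alone, a replicate block, a stricter threshold of 0.01, and the omission of each library in turn. Same-numbered libraries of osimertinib DTP and DMSO deviated together (Pearson r = 0.334, 0.355 and 0.324), so the numbers paired those groups by the rule of over 0.1 in each pair, while the other comparisons did not meet it.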

Additional observations from a re-analysis of the deposited data

How the results depend on the processing

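Of 1305 values recomputed for 83 results under another setting or without a library, 1151 were kept. Fold changes were kept by direction and by their side of the threshold or spread, and locus totals by direction alone. Counts were kept when they stayed near the main count, so 15 lower becoming 10 or 20 was kept. With the replicate block, which pairs osimertinib DTP and DMSO, 8 member regions were called higher and 15 lower, as without it. At an adjusted p under 0.01 the 8 became 5. Between the treated groups, the 0 called lower became 1 with DESeq2. Leaving out a library gave 3 to 9 higher and 10 to 20 lower in osimertinib DTP against DMSO (3 higher without replicate 2 or 3 of DMSO, 5 without replicate 3 of osimertinib DTP), and 0 to 1 lower in osimertinib DTP + AZD5153 against osimertinib DTP (1 without replicate 3 of the former). Over all regions such fits called 668 to 22942 higher and 482 to 20489 lower in osimertinib DTP against DMSO. Between the treated groups, the fit without replicate 3 of osimertinib DTP + AZD5153 called 103 higher and 95 lower of 161758 regions, where the main fit called 0. Each such fit had fewer libraries, and the cause of these changes was not tested.

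Between the treated groups, 3 of the 5 lead regions changed direction when a library was left out. Their log2 fold changes ran from −2.65 to 0.22 at NRXN3, from −0.34 to 0.50 at TAGAP and from −2.06 to 1.00 at TCERG1L-AS1, where the replicate block gave −0.048. Locus totals ran from −0.25 to 1.13 at TAGAP and from −0.89 to 0.11 at MMP16. The neighbour CYP2R1 in osimertinib DTP + AZD5153 against DMSO ran from −0.36 to 1.54. Depth limits near-empty regions, where 1 read moves a ratio, and replicate 3 of osimertinib DTP + AZD5153 had the fewest counts.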
